A study of Mus musculus with 12 samples.

Results

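The 10 IL-1 family genes measured here were the ligands Il1a, Il1b, Il18 and Il33, the antagonists and decoys Il1rn, Il1r2 and Il18bp, and the receptor chains Il1r1, Il1rap and Il1rl1, in cerebral vessels of mice given lipopolysaccharide (LPS). They were taken by gene symbol, matched to the mouse GRCm38 annotation, and all 10 were among the 19150 genes past the filter on low counts, of 54119 genes summed from transcripts. Cerebral vessels were isolated from the forebrains of C57BL6 wild type mice aged 2 to 3 months, after perfusion with cold PBS and removal of the meninges. There were 4 groups of 3 libraries: mice injected with PBS, and mice killed 15 min, 30 min or 4 h after 10 mg/kg LPS given into the peritoneum. Each library pooled the vessels of 1 male and 1 female mouse, so a library is a pair of animals and the sexes cannot be told apart. The time at which PBS mice were killed is not given in the sources used here, so a PBS control matched to each time could not be used.

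Interleukin-1 is made as Il1a and Il1b, which bind the same receptor, Il1r1, and recruit the accessory chain Il1rap to start NF-kB and MAP kinase signalling. Il1rn codes for the receptor antagonist, which occupies Il1r1 without recruiting Il1rap, and Il1r2 codes for a decoy receptor that binds IL-1 but carries no signalling domain. Il18 and Il33 are related ligands. Il18bp codes for a soluble protein that traps IL-18, and Il1rl1 (ST2) is the receptor chain for IL-33, which also uses Il1rap. In the brain the endothelium is known as a major site of Il1r1.

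Library depth was 18309177 to 25882028 fragments, at which 3 fragments correspond to 0.117 to 0.165 counts-per-million (CPM) before scaling. CPM below were scaled by the trimmed mean of M-values (TMM), whose factors were 1.16 to 1.17 for PBS and 0.715 to 0.718 at 4 h, where the 50 most abundant genes held 22.7 to 22.8% of fragments against 15.7% in PBS. Scaling by library size alone moved the median log2 change of all genes at 4 h by -0.70, at 30 min by -0.16 and at 15 min by -0.02. Calls over all genes at 4 h then went from 3636 higher and 2637 lower to 1907 and 8555, and calls at 30 min from 724 and 153 to 541 and 340. All 8 endothelial markers were present, with a summed level of 9520 to 9821 CPM in PBS. Of the other vessel cells, 7 pericyte markers summed to 3769 to 3846 CPM and 4 smooth muscle markers to 2344 to 2380 in PBS. In PBS 6 astrocyte markers summed to 639 to 659 CPM, 5 oligodendrocyte markers to 378 to 395 and 5 neuronal markers to 307 to 319. At 4 h the endothelial sum was 6365 to 6410 CPM, with 6 of 8 markers lower and Cdh5 higher. In bulk RNA, fewer cells of a type and less RNA per cell cannot be told apart.

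The sequences just upstream of the start sites are shown for Il1b and Il1a, whose timing is described below, and for starts of Il1rn, Il1r1 and Il33 whose transcripts are described below. They are the 250 bases before each RefSeq start on GRCm38.p6, written 5′ to 3′ on the gene's strand, and capitals mark letters matching a searched motif on either strand. The motifs were the NF-kB consensus, AP-1 (TGANTCA), ISRE (GAAA, 2 bases, GAAA), GAS (TTCNNNGAA) and TATAAA.
Il1a, chr2:129309973-129310222, minus strand: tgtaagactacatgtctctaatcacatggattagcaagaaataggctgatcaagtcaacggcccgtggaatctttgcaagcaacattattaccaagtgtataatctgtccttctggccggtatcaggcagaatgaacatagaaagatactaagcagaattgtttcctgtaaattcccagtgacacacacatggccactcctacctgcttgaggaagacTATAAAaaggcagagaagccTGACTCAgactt
Il1b, chr2:129371140-129371389, minus strand: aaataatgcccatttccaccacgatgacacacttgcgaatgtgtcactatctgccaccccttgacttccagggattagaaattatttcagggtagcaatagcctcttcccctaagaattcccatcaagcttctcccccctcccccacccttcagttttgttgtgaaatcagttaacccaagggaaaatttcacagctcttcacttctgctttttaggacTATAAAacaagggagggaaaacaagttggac
Il1rn upstream start, chr2:24336610-24336859, plus strand: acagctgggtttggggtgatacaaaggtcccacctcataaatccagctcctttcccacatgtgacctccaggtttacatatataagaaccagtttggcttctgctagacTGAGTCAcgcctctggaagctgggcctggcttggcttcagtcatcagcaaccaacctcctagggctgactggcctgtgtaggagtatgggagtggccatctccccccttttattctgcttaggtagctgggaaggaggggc
Il1rn downstream start, chr2:24345041-24345290, plus strand: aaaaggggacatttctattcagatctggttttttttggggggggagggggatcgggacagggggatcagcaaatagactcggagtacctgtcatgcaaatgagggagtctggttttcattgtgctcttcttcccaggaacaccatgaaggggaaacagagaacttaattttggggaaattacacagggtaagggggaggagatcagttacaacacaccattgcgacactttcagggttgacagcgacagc
Il1r1 downstream start, chr1:40266336-40266585, plus strand: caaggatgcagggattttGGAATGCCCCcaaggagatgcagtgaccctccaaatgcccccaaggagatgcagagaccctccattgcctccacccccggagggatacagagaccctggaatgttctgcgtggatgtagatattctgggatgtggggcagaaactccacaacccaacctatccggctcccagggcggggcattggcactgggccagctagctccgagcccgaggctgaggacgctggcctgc
Il33 downstream start, chr19:29945540-29945789, plus strand: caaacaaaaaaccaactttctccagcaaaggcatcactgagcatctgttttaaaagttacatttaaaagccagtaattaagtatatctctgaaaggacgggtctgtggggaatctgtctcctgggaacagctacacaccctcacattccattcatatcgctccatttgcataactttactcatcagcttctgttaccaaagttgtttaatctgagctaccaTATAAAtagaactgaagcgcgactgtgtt

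Il1a held a TATAAA at position -32 and an AP-1 match at -12, counted from the start site. Il1b held a TATAAA at -31, and the downstream start of Il33 one at -29. The upstream start of Il1rn held an AP-1 match at -141, whereas the downstream start had none of the 5 motifs in this window. The downstream start of Il1r1 held an NF-kB match on the minus strand at -232. Of 32851 promoters of the same length, 12.4% held a TATAAA, 7.25% an NF-kB match, 7.02% a GAS, 6.75% an AP-1 match and 2.98% an ISRE, so such matches are common. All 10 members had an entry, 15 in total, and a missing match says only that those letters are not in the window.

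To ask when each member responded, every LPS group was compared with PBS by edgeR's quasi-likelihood test against a 1.5-fold limit (0.58 on the log2 scale), with Benjamini-Hochberg adjustment over all 19150 genes. A gene is said to have risen or fallen only where the adjusted p was below 0.05. The ligand Il1b rose at 15 min, then Il1a, Il1b, Il1rn and Il1r1 at 30 min, and all members except Il18, Il33 and Il1rl1 at 4 h. At 15 min this was 1 of 10 members, against 4.18% of all genes called and 3.31% called higher. At 30 min it was 4 of 10 against 4.58% (3.78% higher), and at 4 h 7 of 10 against 32.8% (19.0% higher). No member passed as lower by edgeR, DESeq2 or limma with the fold limit. With no fold limit edgeR called Il1rap lower at 30 min, by -0.37 on the log2 scale, in a test passed by 36.9% of all genes. Members whose 3 LPS libraries all lay above the 3 PBS libraries numbered 3, 4 and 9, against 25.2%, 23.7% and 35.9% of all genes. Over the 3 times in order, the median log2 change of the members was 0.20, 0.48 and 3.04, against -0.00, -0.01 and -0.01 over all genes. The 3 comparisons share the PBS libraries, and the p-values measure the spread between these libraries only.

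**Figure D1:**
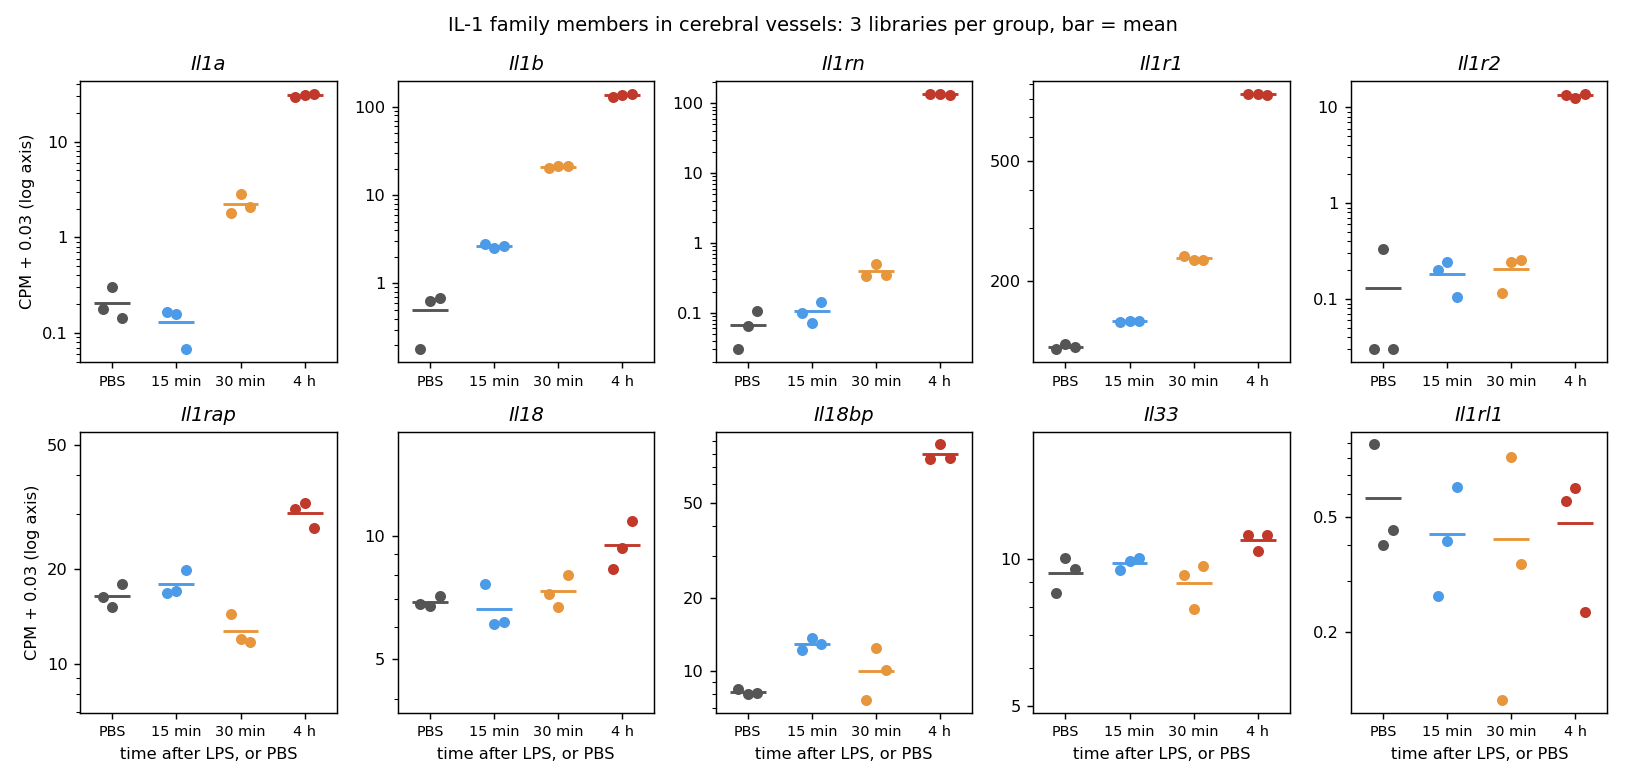
Level of each of the 10 members in each library (CPM plus 0.03, log axis, 1 panel per gene with its own range), with a bar at the mean of 3 libraries per group. Il1b steps up at every time, from 0.468 to 136 CPM on average, whereas Il1rn stays under 0.5 CPM until 30 min and reaches 134 CPM at 4 h.

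Il1b (chromosome 2, 129364570 to 129371139, minus strand) codes for the secreted form of interleukin-1 that is cut from its precursor by caspase-1. Its level was 0.150, 0.607 and 0.648 CPM in the PBS libraries, 2.78, 2.46 and 2.602 at 15 min, 20.1, 21.3 and 21.4 at 30 min, and 129, 137 and 140 at 4 h. The 4 groups did not overlap, and the lowest library at each time lay above the highest of the time before. Against PBS the change was 2.46 on the log2 scale at 15 min (5.51-fold, SE 0.23, edgeR adjusted p = 9.01e-07), 5.45 at 30 min (43.9-fold, SE 0.15, adjusted p = 1.43e-17) and 8.15 at 4 h (284-fold, SE 0.12, adjusted p = 4.11e-24). The steps between times were tested as well: 30 min lay 7.96-fold above 15 min, and 4 h lay 6.48-fold above 30 min.

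Il1a (chromosome 2, 129299610 to 129309972, minus strand), the form active without cutting, was at 0.150, 0.270 and 0.114 CPM in PBS. It was at 0.136, 0.127 and 0.0377 CPM at 15 min, a few fragments per library, and the groups overlapped. It reached 1.78, 2.80 and 2.05 CPM at 30 min, above every earlier library, a rise of 3.57 on the log2 scale (11.9-fold, SE 0.30, adjusted p = 2.67e-08). At 4 h it was 29.4, 30.4 and 31.5 CPM, a rise of 7.35 (163-fold, SE 0.24, adjusted p = 1.1e-17). The ratio of fragments at 4 h to those in PBS, 1301 against 15, was 168 after scaling, with an exact 95% interval of 101 to 301 that covers counting error only.

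Il1a thus passed the test 1 sampling time after Il1b, and at 4 h its level remained below that of Il1b in every library. The exons of Il1a share 222 of 1974 bases (11.2%) with Gm14023 on the other strand, and those of Il1b 25 of 1907 bases (1.31%) with Il1bos. The library kit did not keep strand, so reads from these bases cannot be assigned to 1 of the pair.

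Il18 (chromosome 9, 50554827 to 50581840, plus strand), a ligand known to be present as a stored precursor in resting tissue, was at 6.77, 6.71 and 7.09 CPM in PBS. At 15 min it was 7.59, 6.07 and 6.15, at 30 min 7.19, 6.67 and 8.00, and at 4 h 8.24, 9.32 and 10.9 CPM. The 4 h libraries lay above all PBS libraries, with a log2 change of 0.47 (SE 0.14, adjusted p = 0.939) that did not pass the 1.5-fold limit. Its direction depended on scaling: by library size alone the value at 4 h was -0.24.

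Il33 (chromosome 19, 29925114 to 29960718, plus strand), a nuclear ligand released on damage, was at 8.50, 10.0 and 9.53 CPM in PBS, 9.49, 9.89 and 10.0 at 15 min, 9.27, 7.87 and 9.65 at 30 min, and 11.2, 10.4 and 11.2 at 4 h. Only the 4 h group lay clear of PBS, by 0.22 on the log2 scale (SE 0.12), within the 1.5-fold limit, and by -0.48 with scaling by library size alone. The ligands therefore fell into a pair that rose over 100-fold by 4 h and a pair for which no change beyond 1.5-fold was detected.

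Among the inhibitors, Il1rn (chromosome 2, 24336853 to 24351494, plus strand) was nearly absent at first, with 0, 0.0337 and 0.0763 CPM in PBS and 0.0678, 0.0424 and 0.113 at 15 min. At 30 min it was at 0.303, 0.473 and 0.313 CPM, and at 4 h at 137, 134 and 131 CPM. The PBS and 15 min groups overlapped, and the 30 min and 4 h groups each lay above all others before them. At 30 min the log2 change was 3.14 (SE 0.56, adjusted p = 0.00146), from 25 fragments in the 3 libraries against 3 in PBS, a ratio of 10.0 with an exact 95% interval of 3.06 to 51.8. With DESeq2 this change was 3.31 with an adjusted p of 0.0585, which did not pass, and with limma at a pseudocount of 10 it was 0.95 and did not pass. At 4 h the fitted change was 11.65 (SE 0.15, adjusted p = 1.45e-25), and the ratio of 5720 to 3 fragments was 3691 (1262 to 17905).

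Il1r2 (chromosome 1, 40074079 to 40125231, plus strand), the decoy receptor, was at 0, 0.303 and 0 CPM in PBS, 0.169, 0.212 and 0.0754 at 15 min, and 0.0866, 0.215 and 0.223 at 30 min. These groups overlapped, and all 9 PBS fragments came from PBS library 2. Without that library the PBS group was at 0, and the test then called Il1r2 higher at 15 and 30 min from 12 fragments each, with fitted changes that depend on the prior count. By transcript, all fragments at 15 and 30 min were assigned to Il1r2-204, annotated as a target of nonsense-mediated decay. The coding form Il1r2-201 had 0 at both times. At 4 h the level was 13.6, 12.6 and 13.8 CPM, above every other library, a rise of 6.87 (SE 0.46, adjusted p = 1.62e-11). Without PBS library 2 it was at least 235-fold higher, against a floor of 3 fragments over the PBS group. The ratio of 567 to 9 fragments was 122 (63.8 to 268).

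Il18bp (chromosome 7, 102014885 to 102018690, minus strand) was at 8.38, 7.99 and 8.05 CPM in PBS and 12.1, 13.6 and 12.9 at 15 min. The 15 min group lay above PBS without overlap, by 0.66 (SE 0.12), which did not pass the 1.5-fold limit (adjusted p = 0.946) but had an adjusted p of 9.51e-05 with no fold limit, a test passed by 38.6% of all genes. At 30 min it was 7.54, 12.4 and 10.0 CPM and overlapped PBS. At 4 h it was 75.6, 87.2 and 76.5 CPM, a rise of 3.29 (9.80-fold, SE 0.11, adjusted p = 4.15e-17). Its exons share 80 of 3026 bases (2.64%) with Numa1 on the other strand.

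All 3 inhibitors of the family thus rose at 4 h, and Il1rn was the only one of them that passed at 30 min. Markers of neutrophils and monocytes moved with the 4 h values, whereas those of lymphocytes did not. Of 5 lymphocyte markers tested, 0 rose and 2 fell at 4 h, with sums of 8.05 to 9.54 CPM in PBS and 4.85 to 5.66 at 4 h. The summed level of 10 neutrophil markers was 7.52 to 9.65 CPM in PBS, 5.59 to 8.03 at 15 min, 9.25 to 11.3 at 30 min and 256 to 257 at 4 h, when 9 of 9 tested passed as higher. S100a9 and S100a8 were the most abundant, and Ly6g, which defines the lineage, was at 0 in PBS and at 15 min and at 0.296 CPM at 4 h. The 6 monocyte markers summed to 1335 to 1374 CPM in PBS and 2457 to 2501 at 4 h (5 of 6 higher). Most of that sum was Fn1, which other vessel cells also make, at 1307 and 2288 CPM. The other monocyte markers that rose at 4 h were Plac8 (0.591 to 29.2 CPM), Chil3 (0.209 to 20.2), Vcan (4.88 to 48.7) and Ly6c2 (38.8 to 83.0), and Ccr2 did not pass. Of other cells, 2 of 6 perivascular macrophage markers and 3 of 6 astrocyte markers rose at 4 h, while 4 of 8 microglial markers fell. The astrocyte sum was 639 to 659 CPM in PBS and 1288 to 1337 at 4 h, and most of its rise was Gja1 (74.5 to 522 CPM). Gfap (179 to 281) and Aqp4 (2.91 to 16.6) also rose, and Aldh1l1, S100b and Slc1a2 did not pass. At 30 min 1 monocyte marker (Ly6c2), 1 perivascular macrophage marker (Lyve1) and 2 astrocyte markers rose. By edgeR, DESeq2 and limma 0 of 9 neutrophil markers rose then (1 at an unadjusted p under 0.05 in edgeR, Ngp). The part of these cells in the 30 min and 4 h levels of the members was not tested.

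Il1r1 (chromosome 1, 40225080 to 40317257, plus strand), the signalling receptor, was the most abundant member in PBS. It was at 118, 123 and 120 CPM in PBS, 146, 147 and 147 at 15 min, 242, 234 and 235 at 30 min, and 835, 834 and 828 at 4 h. None of the 4 groups overlapped. The log2 change was 0.28 at 15 min, within the 1.5-fold limit although its adjusted p with no fold limit was 5.78e-09. At 30 min it rose by 0.97 (1.96-fold, SE 0.025, adjusted p = 1.86e-12) and at 4 h by 2.79 (6.90-fold, SE 0.025, adjusted p = 1.11e-27).

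Il1rap (chromosome 16, 26581704 to 26730117, plus strand), the accessory chain, was at 16.2, 15.1 and 17.9 CPM in PBS, 16.8, 17.0 and 19.9 at 15 min, 14.4, 11.95 and 11.7 at 30 min, and 31.2, 32.7 and 27.0 at 4 h. The 30 min libraries all lay below PBS, by -0.37 on the log2 scale, within the 1.5-fold limit. At 4 h it rose by 0.88 (1.85-fold, SE 0.097, adjusted p = 0.00211). That call ended with scaling by library size alone, where the change was 0.18, and with limma on the deposited table, where it was 0.82 or 0.83. Its exons share 552 of 11360 bases (4.86%) with Gm20319 on the other strand.

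Il1rl1 (chromosome 1, 40429570 to 40465415, plus strand) was low throughout, with 19 to 45 fragments in the 3 libraries of a group. It was at 0.861, 0.371 and 0.419 CPM in PBS, 0.237, 0.382 and 0.603 at 15 min, 0.0866, 0.774 and 0.313 at 30 min, and 0.539, 0.599 and 0.205 at 4 h. All groups overlapped, the fitted changes were -0.43, -0.48 and -0.29 with SEs of 0.61 to 0.66, and a difference was not detectable at this depth.

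**Figure D2:**
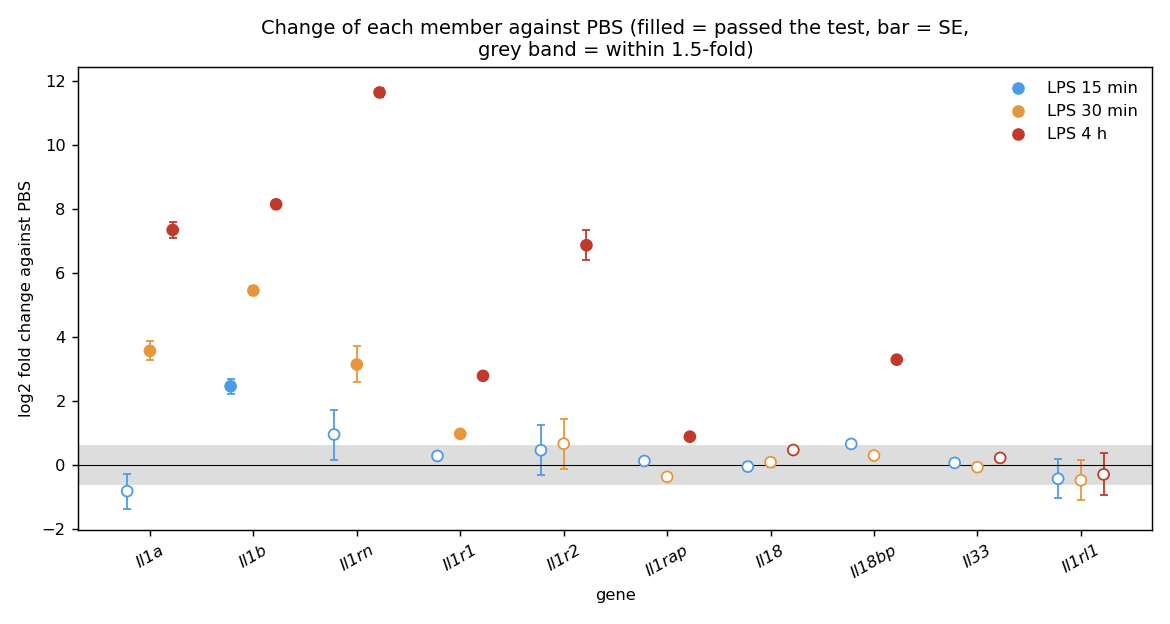
Log2 fold change of each member against PBS, 1 colour for each time after LPS, with bars for 1 SE, filled circles for changes that passed the test and a grey band within 1.5-fold. Filled circles number 1 at 15 min, 4 at 30 min and 7 at 4 h, and all lie above 0, with Il1rn highest at 11.65.

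Between consecutive times, 4 of 10 members rose from 15 to 30 min, against 4.65% of all genes called and 2.69% called higher. They were Il1a (20.9-fold, adjusted p = 6.94e-09), Il1b (7.96-fold, adjusted p = 1.97e-14), Il1rn (4.57-fold, adjusted p = 0.0176) and Il1r1 (1.62-fold, adjusted p = 0.000909). From 30 min to 4 h 7 of 10 rose, against 28.6% called and 16.9% higher. The largest of these was Il1rn, 363-fold, then Il1r2, 73.9-fold, Il1a, 13.8-fold, and Il18bp, 7.98-fold. Il1b (6.48-fold), Il1r1 (3.51-fold) and Il1rap (2.39-fold) moved less over this step. The call of Il1rn from 15 to 30 min was lost with DESeq2 (2.28 on the log2 scale), with limma (2.08 and 0.81), and without 15 min library 1 (2.11), 15 min library 2 (1.96) or 30 min library 2 (1.95). That of Il1r1 was lost with scaling by library size alone (0.55), as was that of Il1rap from 30 min to 4 h (0.72). With that scaling the split of all calls went from 516 higher and 375 lower to 384 and 647 between 15 and 30 min, and from 3229 and 2255 to 1917 and 6931 between 30 min and 4 h.

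Levels of different genes were compared in TPM (transcripts-per-million), which correct for length. In PBS the order was Il1r1 at 41.3 ± 1.15 TPM (SD, n = 3), Il18 at 20.6 ± 0.24 and Il18bp at 9.18 ± 0.79, each clear of the next. Il1rap and Il33 followed at 6.97 and 6.40 TPM and overlapped, then Il1b at 0.921. Il1rl1, Il1a, Il1r2 and Il1rn overlapped at 0.209 to 0.0279 TPM. The resting vessel preparations thus held RNA of the receptor and of the ligands Il18 and Il33, with little Il1a or Il1b RNA. Which cells in them held it was not tested.

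At 30 min Il1b was second, at 25.8 TPM after Il1r1 at 65.9. At 4 h the order was Il1r1 at 152 ± 1.90 TPM, Il1b at 111 ± 5.93, Il1rn at 72.9 ± 3.75 and Il18bp at 57.8 ± 5.90, each clear of the next. Il1a, Il18 and Il1r2 came next at 14.9, 13.6 and 10.9 TPM, each overlapping its neighbour, then Il1rap at 6.78, Il33 at 4.01 and Il1rl1 at 0.0854. The summed TPM of the members was 86.0 ± 1.63 in PBS and 444 ± 6.05 at 4 h. Il18 made up 24.0% of that sum in PBS and 3.06% at 4 h, whereas Il1b went from 1.07% to between 23.9 and 26.5% and Il1rn from 0.0323% to 16.4%. TPM are not TMM-scaled, and shares within a group do not need it.

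Each inhibitor or decoy was set against a ligand or receptor of its pathway by log2 ratios of TPM + 0.1 within each library. The ratios were compared by an exact two-sided permutation test, whose smallest p with 3 against 3 libraries is 0.1. There were 9 such comparisons, and every p of 0.1 below becomes 0.15 after Benjamini-Hochberg adjustment. The Il1rn to Il1b ratio was -2.82 ± 0.71 in PBS, -4.61 ± 0.29 at 15 min, -5.88 ± 0.76 at 30 min and -0.61 ± 0.15 at 4 h. No group overlapped PBS, and the differences of -1.78, -3.05 and 2.22 each had an exact p of 0.1. With the pseudocount of 0.1, Il1b was thus 58.7 times Il1rn at 30 min and 1.52 times at 4 h. The 30 min multiple depends on that pseudocount and rests on 7 to 11 Il1rn fragments per library. The log2 ratios of the 3 libraries there were -6.22, -5.00 and -6.41. The PBS value rests on Il1rn at or near 0, where the pseudocount sets it in part. With a pseudocount of 1 the 4 h difference was 0.26 (exact permutation p = 0.4), so the excess over PBS at 4 h depends on it, whereas the differences at 15 and 30 min were -1.35 and -3.43 (each exact permutation p = 0.1).

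The Il1r2 to Il1r1 ratio was -7.91 ± 1.33 in PBS, -7.01 ± 0.55 at 15 min, -7.48 ± 0.57 at 30 min and -3.80 ± 0.15 at 4 h. At 15 and 30 min the Il1r2 fragments were assigned to Il1r2-204, not to the coding form. Only 4 h stood clear of PBS, by 4.11 (exact permutation p = 0.1), or by 1.545 with a pseudocount of 1, and Il1r1 was still 13.9 times Il1r2 there. For Il18bp to Il18 the ratio was -1.16 ± 0.13, -0.46 ± 0.48, -0.95 ± 0.55 and 2.08 ± 0.24 in the same order. It was 3.25 higher at 4 h than in PBS (exact permutation p = 0.1), and Il18bp was then 4.24 times Il18. This was the only 1 of the 3 pairs in which the inhibitor or decoy exceeded the gene paired with it. It is also the only pair in which the inhibitor binds the product of the other gene.

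**Figure D3:**
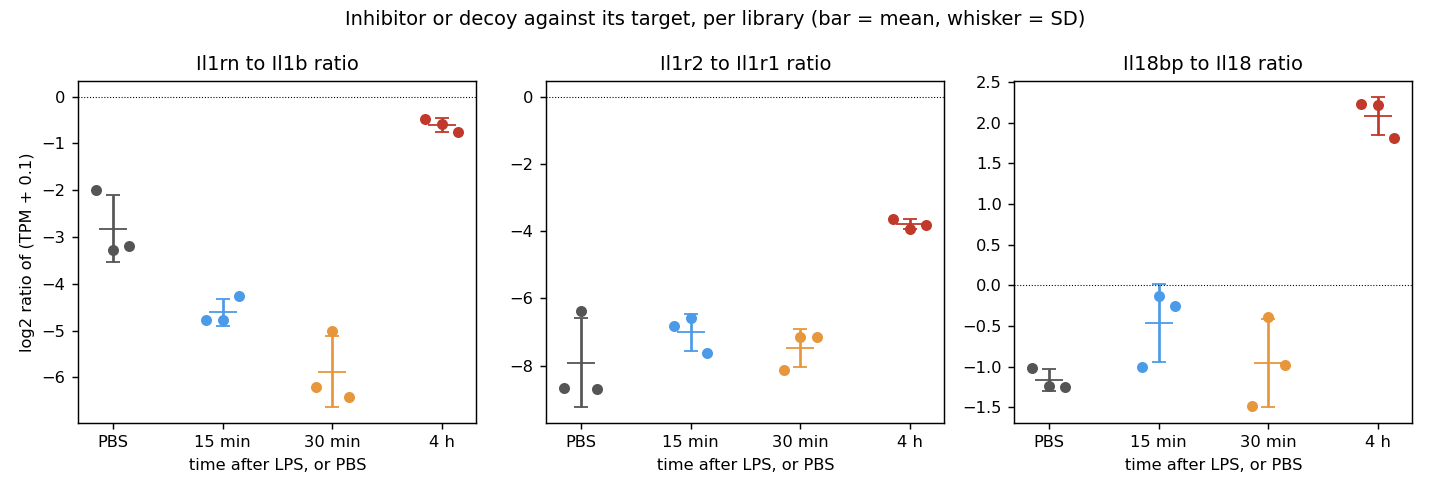
Log2 ratio of (TPM + 0.1) of each inhibitor or decoy to the ligand or receptor paired with it, in each library, with the mean and SD of 3 libraries per group. The Il1rn to Il1b ratio is lowest at 30 min (-5.88) and highest at 4 h (-0.61), and the Il18bp to Il18 ratio lies above 0 at 4 h only.

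At the level of transcripts, 42 were annotated for the 10 genes and 23 of them were tested among 49421. Of the member transcripts, 1 passed at 15 min, 4 at 30 min and 14 at 4 h, all higher, against 1.07%, 1.61% and 17.9% of all transcripts called and 0.888%, 1.41% and 10.4% called higher. Fragments in exons that transcripts share are split by Salmon's estimate, so the values that follow carry that uncertainty. At 15 min the called transcript was Il1b-201, the coding form (2.76 on the log2 scale, adjusted p = 0.00114).

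Il1rn has 2 groups of starts: Il1rn-204 begins upstream and codes for 159 residues, the intracellular antagonist, and Il1rn-201 begins 8457 bases further down and codes for 178 residues, the secreted antagonist. Il1rn-202, of 162 codons, begins 8435 bases downstream. At 30 min only Il1rn-201 passed (4.15, adjusted p = 0.00106). At 4 h the estimated fragments of Il1rn-201 were 1569, 1747 and 1722, a rise of 12.67 (SE 0.30), and those of Il1rn-202 were 84, 105 and 64. Il1rn-204 rose by 8.27 (SE 0.98, adjusted p = 0.00167). Transcripts annotated from the upstream start held 6.92, 7.75 and 6.82% of the gene at 4 h. Il1rn-201 held 88.2, 86.5 and 89.7%, so by these estimates the secreted form led in each library. Il1rn-204 also ends further down, 14641 bases from its start against 14083 for Il1rn-201 from the same point. Fragments from either end can be assigned to it, so use of the upstream start itself was not tested. The downstream window printed above precedes the start of Il1rn-202, and Il1rn-201 starts a little further down, past the end of that window.

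**Figure D4:**
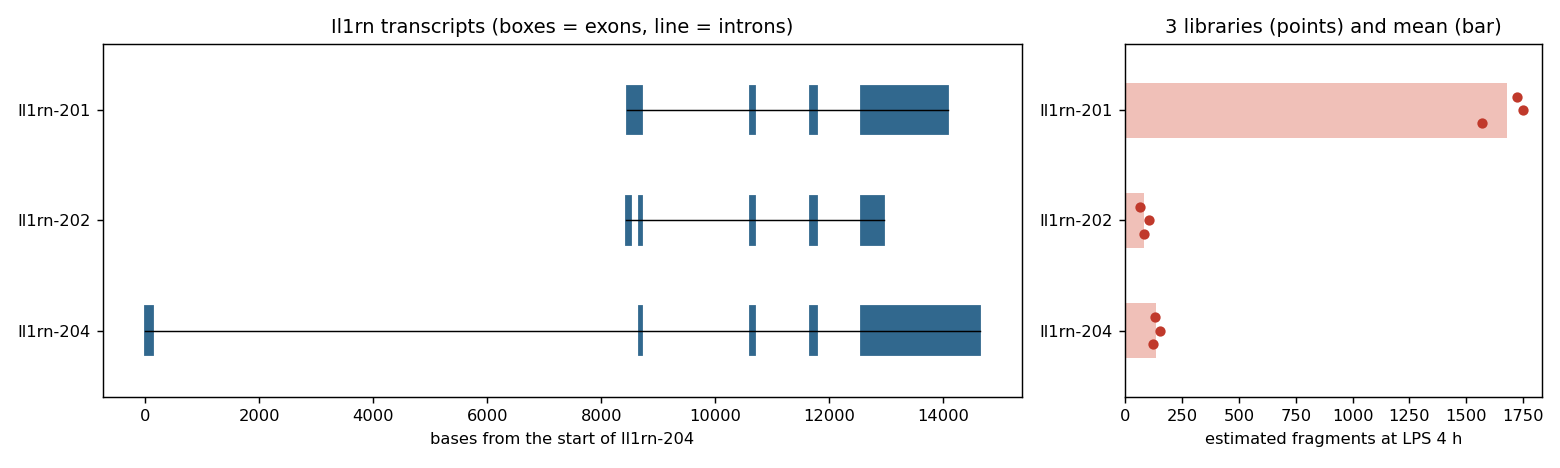
Exons of 3 Il1rn transcripts (left, in bases from the start of Il1rn-204) and the estimated fragments of each at 4 h (right, points for the 3 libraries, bar for the mean). Il1rn-201, from the downstream start, holds 1569 to 1747 fragments, and Il1rn-204 starts 8435 bases before the nearest downstream start.

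The receptor transcripts rose together: Il1r1-201 by 2.99, Il1r1-202 by 2.72 and Il1r1-203 by 2.72 at 4 h. Il1r1-201, annotated from the upstream start, held 6.29 ± 1.90% of the gene in PBS and 7.46 ± 1.05% at 4 h. That difference was smaller than the spread between the PBS libraries. Il1r1-201 also ends further down than Il1r1-202, so its share does not measure the start alone. Il1b-203, which keeps an intron, rose by 4.03 at 4 h, and of the Il18bp transcripts Il18bp-201 rose by 3.91, Il18bp-202 by 1.70 and Il18bp-203 by 3.46. Il1a-201 and Il1r2-201 rose by 7.31 and 6.83. Il18bp-204 (4.10, adjusted p = 0.0693), Il18-203 (0.47), Il1rap-204 (0.24) and Il33-202 (-0.25) did not pass. Il1b-202 and Il1r2-203 reached 3.98 and 1.21 TPM at 4 h from 0 TPM in PBS, but were below the filter on counts.

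The forms of Il1rap, Il33 and Il18 were looked at after their values were seen, so the shares are given with no test. Il1rap-201, of 570 codons, is the membrane form, and Il1rap-202, of 685 codons, is the b form, described in neurons. Il1rap-201 held 62.1, 55.9 and 57.6% of the gene in PBS and 70.1, 72.6 and 75.2% at 4 h, and rose by 1.14 in the transcript fit (adjusted p = 0.00735). Il1rap-202 and the partial Il1rap-204 with the same last exons held 35.8 ± 6.07% in PBS, 50.1 ± 4.66% at 15 min and 20.5 ± 0.62% at 4 h. Il1rap-204, annotated as a target of nonsense-mediated decay, was the larger part. It had 90.8, 131 and 125 estimated fragments in PBS and 186, 156 and 175 at 15 min. Il1rap-202 had 38.1, 56.8 and 42.8 in PBS and 83.0, 24.8 and 91.7 at 15 min. The summed neuronal markers were 307 to 319 CPM in PBS, 479 to 491 at 15 min and 239 to 248 at 4 h. Of the 5, 2 rose at 15 min, Slc17a7 (71.4 to 168 CPM) and Syt1 (59.3 to 96.6), and Snap25, Rbfox3 and Gad1 did not pass. At 4 h 0 of 5 passed as lower. The part of neurons in these shares was not tested.

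Il33-201, from the downstream start printed above, was estimated at 0 fragments in all 9 libraries of PBS, 15 min and 30 min. At 4 h it had 8.01, 53.9 and 59.7 fragments, or 5.52, 34.6 and 36.4% of Il33, with 1 of the 3 libraries far lower. It did not pass the filter on low counts, and both Il33 transcripts code for 266 residues. Of the Il18 forms, Il18-202 went from 48.2% of the gene in PBS to 6.37% at 4 h and Il18-204 from 27.5% to 67.6%. Both code for 192 residues, and neither passed the test (-2.48, adjusted p = 0.276, and 1.72, adjusted p = 0.0857).

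**Figure D5:**
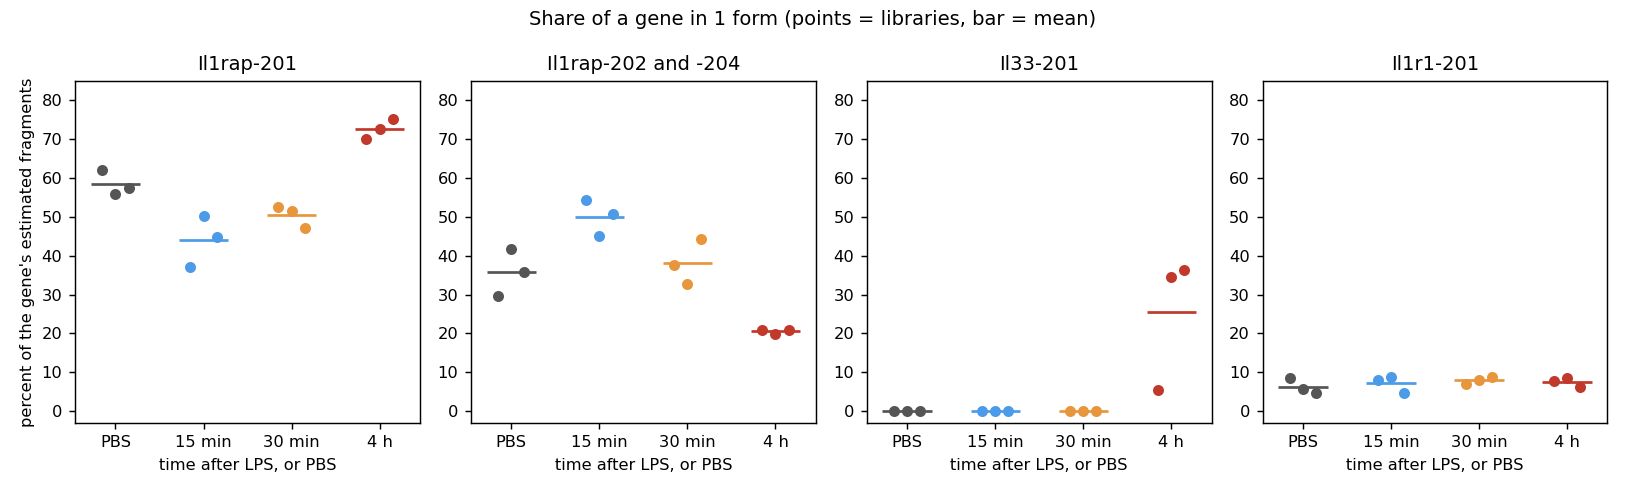
Share of a gene's estimated fragments held by 1 form, in percent, with points for libraries and bars for means of 3. Il1rap-201 is at 70.1 to 75.2% at 4 h, Il33-201 is at 0 before 4 h, and Il1r1-201 stays between 4.74 and 8.88%.

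Genes that act with the members were taken from lists, whose counts stand against 4.18%, 4.58% and 32.8% of all genes called at the 3 times in order (19.0% higher at 4 h). Counts are for edgeR with the 1.5-fold limit unless another test is named. Of 11 other ligands and receptors of the family, 6 were too low to test (Il1f5, Il1f6, Il1f8, Il1f10, Il18r1 and Il1rapl2). Of the 5 tested, 0 passed at 15 or 30 min by edgeR, DESeq2 or limma (1 and 0 at an unadjusted p under 0.05 in edgeR), and 3 rose at 4 h. They were Il18rap, the accessory chain for IL-18, by 4.77 (0.303 to 8.38 CPM), Il1f9, now called IL-36 gamma, by 3.53, and Il1rl2, the IL-36 receptor, by 1.45. Sigirr, an inhibitory receptor, had a value of -0.65 (adjusted p = 0.0981) that passed as lower with scaling by library size alone, where the call of Il1rl2 was lost (0.75).

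In the signalling chain below the receptor, 0 of 21 genes passed at 15 min by edgeR, DESeq2 or limma (1 at an unadjusted p under 0.05 in edgeR), 2 rose at 30 min and 9 rose and 1 fell at 4 h. Irak2, a kinase that sustains the signal, rose by 0.96 at 30 min and Tifa, an adaptor of TRAF6, by 1.46, and limma called Tifa but not Irak2. At 4 h the largest rises were Tifa by 5.21, Irak3, which restrains the kinases, by 3.83, and the adaptor Myd88 by 3.48, and Tab1, which binds the kinase TAK1, fell by 0.85, a call lost with limma. The median of the list was 0.50 at 4 h against -0.01 for all genes. With scaling by library size alone it was -0.20, with 5 genes higher and 7 lower, and limma called 7 higher and 0 lower (9 of the list at an unadjusted p under 0.05).

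Of 22 genes for maturation and release, 19 were tested (Nlrp1a, Elane and Ctsg were too low), and 0 passed at 15 min by edgeR, DESeq2 or limma with the fold limit (0 at an unadjusted p under 0.05 in edgeR), while with no fold limit edgeR called 9 lower, against 38.6% of all genes called in either direction. The inflammasome sensor Nlrp3 rose by 2.42 and the LPS sensor Casp4 by 1.05 at 30 min. The call of Casp4 was lost with library size alone, DESeq2 and limma (0.89 to 1.03). At 4 h 10 rose, led by Mefv by 6.50, Casp4 by 6.12 and Nlrp3 by 5.21, and 4 fell. Nlrp1b fell by 2.195 from 0.450 CPM, a call lost with DESeq2 and with limma at a pseudocount of 10. Of the calpains, proteases that cut the Il1a precursor, Capn1 fell by 1.504 and Capn2 fell by 1.415. The list's median was 0.87 at 4 h, and with scaling by library size alone 7 rose and 5 fell. DESeq2 called 9 higher and 3 lower, and limma 8 higher and 3 or 4 lower.

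Genes known to be induced by IL-1, most of them also by LPS itself through the shared adaptor Myd88, were already higher at 15 min for the most part. Of 15, 9 rose at 15 min, 14 at 30 min and 15 at 4 h, with medians of 1.36, 5.11 and 7.25, and these counts were the same with scaling by library size alone. DESeq2 and limma called 8 at 15 min, without Ccl2, and limma at a pseudocount of 10 called 13 at 30 min, without Il6. The largest at 15 min were the neutrophil chemokines Cxcl1 by 5.92 and Cxcl2 by 5.73, the adhesion molecule Sele by 3.64, the NF-kB cofactor Nfkbiz by 2.14 and Lcn2 by 1.90. Nos2 was the gene that did not pass at 30 min. At 4 h Csf3 rose by 13.64 and Cxcl2 by 12.58. Il6 had 0 fragments in PBS and 15 min and was at least 14.4-fold higher at 30 min and at least 15075-fold higher at 4 h, against a floor of 3 fragments over the PBS group. With Il6 at these bounds the medians were 1.36, 4.82 and 7.25. Whether IL-1 or LPS raised these genes cannot be told apart in this design.

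For each member, up to 3 genes whose log2(CPM + 1) followed it most closely over the 12 libraries were named, among 14586 genes counted 50 times or more on average. The Pearson correlations describe 4 groups of 3 libraries, so a gene that steps at the same time scores high. Il1a was nearest to Nfkb2 (0.999), Rhoc (0.998) and AC160336.1 (0.998), and Il1b to Depp1 (0.999), Gm45774 (0.998) and Ier5 (0.997). Il1rn was nearest to Il6, Cxcl9 and Lgals9 (each 1.000), and Il1r1 to Rela (1.000), Gm42031 (0.999) and Ctps (0.999). Il1r2 followed Ifi211, Fmr1 and H2afy (each 0.999), and Il18bp followed Med13l (0.995), Slc37a1 (0.994) and Gripap1 (0.994). Il1rap followed 6820431F20Rik (0.980) and Ddn (0.977). The 3 members with no call had looser neighbours. Il18 was nearest to Got1 (0.953), U2surp (0.927) and Gm38157 (0.924), Il33 to Pgm3 (0.889), Vmn1r81 (0.879) and Spc24 (0.870), and Il1rl1 to Clec9a (0.753), Snap91 (0.721) and Chtf8 (0.687).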

How the data were processed

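RNA-seq libraries were made from cerebral vessels of 12 pools of mice with SMART-Seq v4 and Nextera XT, which do not keep strand, and sequenced in pairs on a NovaSeq. Per the labels, the authors ran Salmon 1.2.1 on GRCm38.p6. The deposited files hold, for each library, estimated counts of fragments per transcript and TPM, which the authors' run of Salmon corrected for effective length, and 1 gene table of signal, counts that the authors summed with tximport and divided by DESeq2 size factors and transcript length factors. The table names its columns by sample number, matched to the labels by the number in each library's description. How reads were trimmed is not given in the sources used here.

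Of 140948 transcripts, 139852 were joined to GENCODE genes of the same build (139357 with the same version), and the 1096 left out held 0.482 to 0.850% of fragments. Estimated counts were summed to 54119 genes and rounded to whole numbers. Genes past edgeR's filter (minimum count 10, total 15) numbered 19150. The main test was edgeR 4.0.16 (R 4.3.3) glmQLFit over all 12 libraries with TMM factors and glmTreat against 1.5-fold, with Benjamini-Hochberg adjustment. SE is the log2 change divided by the square root of F, and can be too small at low counts. Ratios were tested by exact permutation (scipy 1.17.1). Alternatives were RLE and library-size scaling, a length offset, no filter, other fold limits, DESeq2 1.42.0, limma 3.58.1 on the deposited signal with pseudocounts of 1 and 10, fits on the groups compared only, a replicate block and each library left out. On simulated data with log2 changes of 2 or 3, 94 to 100 of 100 genes per fold size were recovered with 2 or 3 unchanged genes called. The changed genes were drawn from those with more counts than Il1a, Il1b, Il1rn, Il1r2 and Il1rl1 had in PBS. Recovery at such low counts, or of smaller changes, was not tested.

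Replicates of a group differed by 2.19 to 2.9 times the counting variance, more than counting the same library again would give. This cannot tell separate pools of mice from separate libraries of 1 pool. The common coefficient of variation between libraries in the fit was 0.0524. The members, the gene lists and the tests were chosen with earlier results of these data known. Named were all members in every library, their transcripts of at least 1 TPM in a group or tested and called, and for each list the 3 largest called rises and falls at 4 h and up to 5 called genes at 15 or 30 min. For each member the 3 genes most correlated with it were named, except 1 that is not reported here.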

Additional observations from a re-analysis of the deposited data

Results flagged for a closer look

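Members whose change against PBS differed between 2 times after LPS, by the edgeR test of the later time against the earlier, are given here with the log2 difference. Between 15 and 30 min these were Il1a by 4.39, Il1b by 2.99, Il1rn by 2.19 and Il1r1 by 0.69. Between 30 min and 4 h they were Il1rn by 8.51, Il1r2 by 6.21, Il1a by 3.78, Il18bp by 3.00, Il1b by 2.70, Il1r1 by 1.81 and Il1rap by 1.26. The call of Il1rn between 15 and 30 min was lost with DESeq2, with limma and without any 1 of 3 libraries. With scaling by library size alone the calls of Il1r1 between 15 and 30 min and of Il1rap between 30 min and 4 h were lost.

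A signal outside the fits was that of Il33-201, the transcript from the downstream start, which did not pass the filter on low counts. Its estimated fragments summed to 121.6 over the 3 libraries at 4 h and to 0 in the 3 PBS libraries, which allows up to 3 fragments. The groups have 3 libraries each, too few for a check of single libraries that stand apart.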

How the results depend on the processing

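Over the alternatives run, 792 single values of the members kept direction and call, 13 lost a call, 11 gained one and 24 turned direction. The members called at 15 min were 1, and 3 with no fold limit, 2 with the fold limit applied afterwards and 1 to 2 with a library left out (2 without PBS library 2, which adds Il1r2). Member transcripts called at 15 min were 1, and 3 with no fold limit and 1 to 2 with a library left out. Calls over all genes with no fold limit were 7393 at 15 min, 7066 at 30 min, 13124 at 4 h, 7153 between 15 and 30 min and 12498 between 30 min and 4 h. With the limit afterwards they were 2260 at 15 min, 2042 at 30 min and 2277 between these times. With limma at pseudocounts of 1 and 10 they were 406 and 385 at 15 min, 531 and 497 at 30 min, and 443 and 413 between these times, and with library size alone 10462 at 4 h and 8848 between 30 min and 4 h. With a pseudocount of 1 the Il1r2 to Il1r1 ratio differed from PBS by -0.0394 (15 min), -0.47 (30 min) and 1.545 (4 h), and the Il1rn to Il1b ratio by 0.26 (4 h, exact permutation p = 0.4), and with a library left out that of Il18bp to Il18 at 30 min was -0.0671 to 0.478.

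Directions that turned belonged to members with no call. With library size alone Il18 was -0.0786 at 30 min, -0.24 at 4 h, -0.00339 between 15 and 30 min and -0.16 between 30 min and 4 h. Il33 was -0.48 at 4 h and -0.25 between 30 min and 4 h, and Il1rl1 was -0.35 in the latter. At 15 min Il1rl1 was 0.96 with the length offset and 0.78 and 0.57 with limma. With a library left out, Il1r2 ranged from -0.0797 to 4.797 at 15 min (the highest against a PBS group at 0, no bound) and from -0.11 to 0.52 between 15 and 30 min, Il18 from -0.17 to 0.0055 at 15 min, and Il33 from -0.13 to 0.015 at 30 min. Il1rl1 ranged from -0.83 to 0.0388 at 15 min, -0.58 to 0.17 at 4 h, -1.01 to 0.42 between 15 and 30 min and -0.29 to 1.14 between 30 min and 4 h. The cause was not tested.

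With the replicate number as a block the same members were called, 1 of 10 at 15 min, and all genes called there were 776. Same-numbered libraries correlated at -0.261 to 0.234 over 18 comparisons, 5 of them over 0.1, and 8 of 12 libraries correlated best with their own number. Whether the numbers pair libraries was not tested. Il1rn and Il1r2 before 4 h rest on 0 to 11 fragments per library, which limits their values.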
